A study of Arabidopsis thaliana with 12 samples.

Results

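The 6 arrays described here compare shoot apices of Arabidopsis thaliana that carry an active FRIGIDA (FRI) allele and differ in FLOWERING LOCUS C (FLC). They were chosen by their titles from 12 arrays in all: 3 of FRI(Sf-2)-FLC(Col), with an intact FLC, and 3 of FRI(Sf-2)-flc-3, in which FLC is deleted, 1 array of each on days 0, 2 and 4. Both genotypes have the Col-0 background and an FRI allele brought in by crossing from the accession San Feliu-2 (Sf-2). The plants were 30 days in short days (9 h light, 15 h dark) at 21 °C before the move to long days (16 h light, 8 h dark), and the days are counted from that move. The other 6 arrays, fri(Col)-FLC(Col) and fri(Col)-flc-3, hold the same pair of FLC alleles with the FRI allele of Col-0. Each genotype and day has 1 array, so there is no replicate within a day, and the labels name neither the number of plants in a sample nor how the lines were isolated.

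FRI and FLC are the main natural switch of flowering time in this species. An active FRI protein raises transcription of FLC, whose MADS-box protein binds and represses genes that promote flowering in leaf and apex, such as FT, SOC1 and FD; Col-0 carries a FRI allele that has lost this function. Plants with active FRI and intact FLC flower late until a long cold period silences FLC, and deleting FLC in such plants removes most of that delay. The comparison of FRI(Sf-2)-FLC(Col) with FRI(Sf-2)-flc-3 therefore asks what FLC changes in the apex where its own level is high.

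The values are log2 levels of 8247 probe sets, of which 3794 are paired with 1 gene in the platform annotation; 6185 were bright enough to be tested, 2736 of them with 1 gene. The array medians lay between 5.30 and 5.36. The annotation pairs neither FLC nor FRI with a probe set that is theirs alone, and the targeted gene could therefore not be used to check the labels. AT4G01590, a gene near the top of chromosome 4 where FRI also lies by its locus name, was low in both genotypes compared here, at 3.98, 3.74 and 3.69 on days 0, 2 and 4 in FRI(Sf-2)-FLC(Col) and at 3.81, 3.39 and 3.83 in FRI(Sf-2)-flc-3, against 5.28 to 6.17 on the 6 arrays with the Col-0 FRI allele. The day 2 array of FRI(Sf-2)-flc-3 stood apart. Its spread over all probe sets was narrower, with an SD of 2.17 against 2.22 to 2.26 on the other 11 arrays. Its mean BioB hybridisation control was 7.41 against 5.69 to 6.18. The adjusted p without it stands beside each call that it ended, and values without it are given where they bear on a named gene or list.

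Of the tissue markers with a named probe set, YAB3 and PHV, genes of organ polarity in young primordia, were bright on all 12 arrays (8.72 to 9.27 and 7.93 to 8.47 on the brighter YAB3 probe set and on PHV). UFO, which acts in floral meristems, was dim at 3.36 to 4.07. Genes for photosynthesis were bright as well: the mean of 13 probe sets ran from 9.68 to 9.89 in FRI(Sf-2)-FLC(Col) and from 9.61 to 9.93 in FRI(Sf-2)-flc-3. STM, CLV3 and the listed trichome, vascular and root genes had no named probe set and were not analysed here. In tissue of many cell types, fewer cells of a type and less RNA per cell cannot be told apart.

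Loss of FLC was accompanied by few differences that passed the test. FRI(Sf-2)-FLC(Col) minus FRI(Sf-2)-flc-3, matched by day, gave 9 of 6185 probe sets (0.146%) with a limma adjusted p under 0.05, 4 higher (0.0647%) and 5 lower (0.0808%) with FLC. The annotation gives a gene for 1 of the 9, the papain-like cysteine protease gene AT4G16190 (1 of 2736 named probe sets, 0.0365%), and none for the other 8 (of 3449, 0.232%), for which the identifier stands here. The direction of each of the 9 held on days 0, 2 and 4, which was also so for 2048 of the tested probe sets (33.1%) and, with the Col-0 FRI allele, for 1260 (20.4%). In 6 of the 9 the 3 values of either genotype did not overlap, as in 619 of all tested (10%), 310 of them higher with FLC (5.01%). Both traits follow largely from the call, which was made on these same differences, so they give it no further support. The fit used all 12 arrays with additive terms for genotype and day, so each standard error (SE) below is what that model leaves unexplained and not the spread of replicates. At an unadjusted p under 0.05 the count was 729 (11.8%), 443 higher (7.16%) and 286 lower (4.62%) with FLC.

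**Figure D1:**
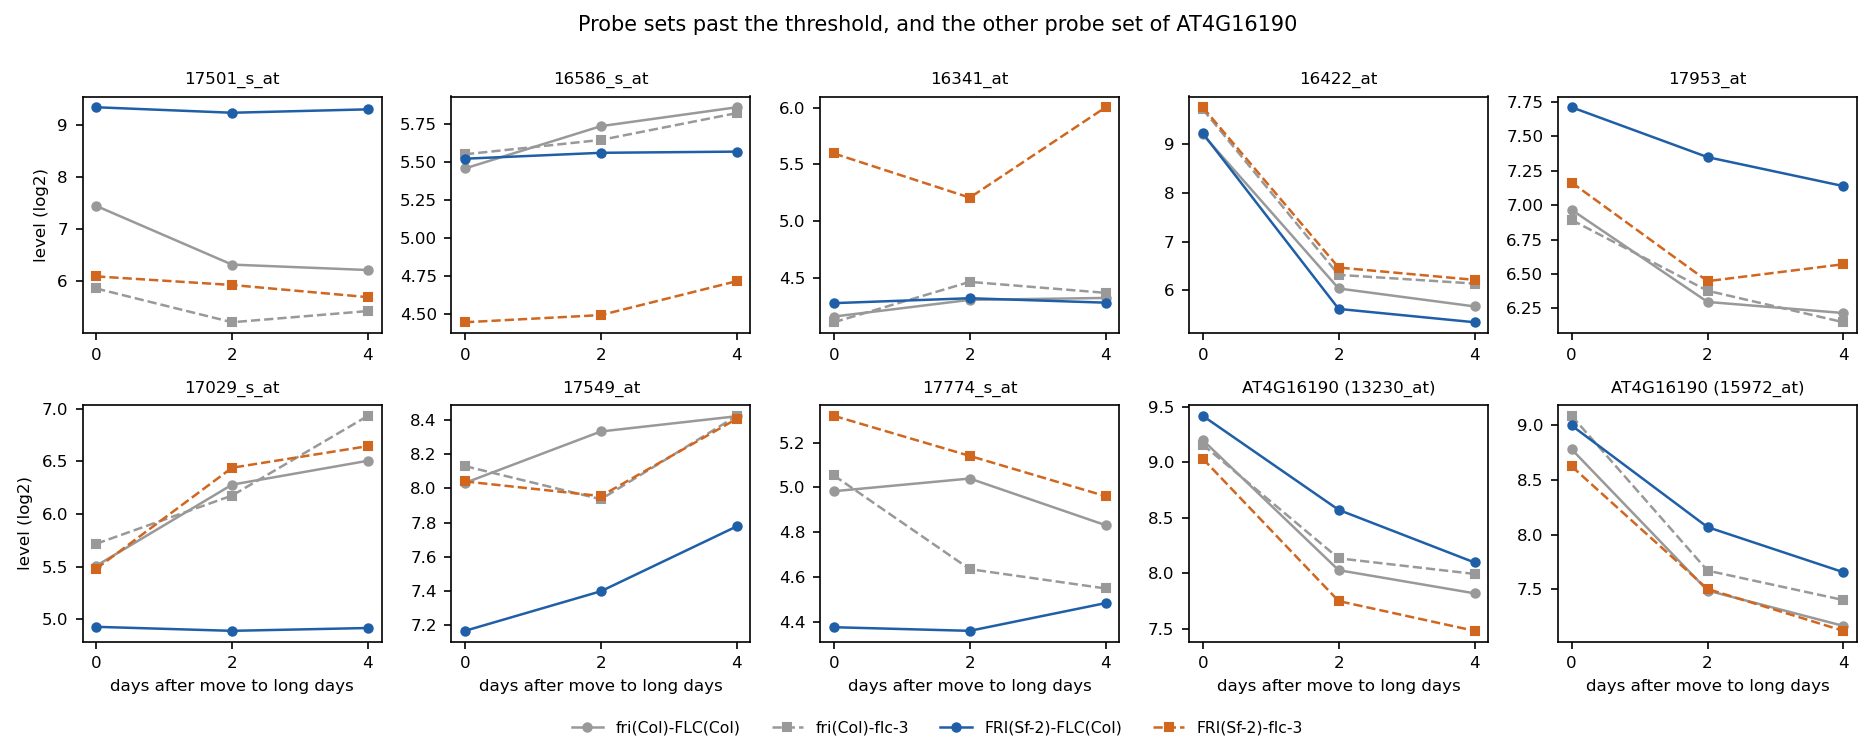
Level (log2) of the 9 probe sets past the threshold, and of the other probe set of AT4G16190, against days after the move to long days; each point is 1 array, blue circles FRI(Sf-2)-FLC(Col), orange squares FRI(Sf-2)-flc-3 and grey the 2 genotypes with the Col-0 FRI allele. The blue and orange lines do not cross in any panel and are farthest apart for 17501_s_at; for 16586_s_at and 16341_at the orange line lies apart from the other 3.

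The largest difference was that of 17501_s_at. On days 0, 2 and 4 it measured 9.34, 9.24 and 9.30 in FRI(Sf-2)-FLC(Col) and 6.09, 5.92 and 5.69 in FRI(Sf-2)-flc-3. It was thus steady and high with FLC on all days, and the groups did not overlap. The fitted difference was 3.39 ± 0.188 (SE, log2; adjusted p = 3.10e-06), or 10.5-fold. With the Col-0 FRI allele it measured 7.45, 6.32 and 6.21 with FLC and 5.86, 5.21 and 5.42 without, so it was also higher with FLC there on each day, by 1.16 ± 0.188, which did not pass (adjusted p = 0.112). Whether 17501_s_at measures the FLC transcript itself is not given by the annotation; the difference is then not shown to be that of a gene acting downstream of FLC.

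In 17029_s_at, 17549_at and 17774_s_at, as in 17501_s_at, the 3 arrays of FRI(Sf-2)-FLC(Col) lay outside the range of the 9 arrays of the other genotypes. 17029_s_at measured 4.93, 4.89 and 4.92 in FRI(Sf-2)-FLC(Col) and 5.48, 6.44 and 6.65 in FRI(Sf-2)-flc-3. It lay between 4.89 and 4.93 with FLC and was higher on each later day without it, and the 6 arrays with the Col-0 FRI allele read 5.51 to 6.93. The fitted difference was -1.28 ± 0.202 (adjusted p = 0.0373, and 0.163 without the FRI(Sf-2)-flc-3 day 2 array). 17549_at measured 7.16, 7.40 and 7.78 with FLC and 8.04, 7.96 and 8.41 without (-0.69 ± 0.110, adjusted p = 0.0373, and 0.0761 without that array), against 7.94 to 8.43 with the Col-0 FRI allele. 17953_at went the other way, at 7.71, 7.35 and 7.14 with FLC and 7.16, 6.45 and 6.57 without (0.67 ± 0.0980, adjusted p = 0.0226, and 0.0761 without that array), against 6.15 to 6.97. Over the days the 2 genotypes overlap in 17953_at, since it was lower after day 0 in both, though on each day it was higher with FLC.

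17774_s_at was lower with FLC too, at 4.38, 4.36 and 4.48 against 5.32, 5.14 and 4.96 (-0.73 ± 0.118, adjusted p = 0.0373, and 0.147 without the FRI(Sf-2)-flc-3 day 2 array), and the 6 arrays with the Col-0 FRI allele read 4.55 to 5.05. 16422_at was far lower after day 0 in every genotype. It measured 9.23, 5.62 and 5.34 with FLC and 9.76, 6.47 and 6.21 without, lower with FLC on each day by 0.53 to 0.87 (-0.75 ± 0.10, adjusted p = 0.0113, and 0.0561 without that array). With the Col-0 FRI allele it was also lower with FLC on each day, at 9.20, 6.04 and 5.67 against 9.72, 6.32 and 6.14, and there the fitted difference was -0.42 ± 0.10 without passing (adjusted p = 1.0). Its 2 differences were not shown to differ from each other (interaction -0.33 ± 0.142, adjusted p = 0.685).

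In 16586_s_at and 16341_at the 3 arrays of FRI(Sf-2)-flc-3 lay outside the range of the other 9, and with the Col-0 FRI allele the differences were 0.01 and -0.05. 16586_s_at measured 5.52, 5.56 and 5.57 in FRI(Sf-2)-FLC(Col) and 4.45, 4.50 and 4.72 in FRI(Sf-2)-flc-3 (0.99 ± 0.0925, adjusted p = 0.000533), and 5.46 to 5.86 on the other 6 arrays. 16341_at measured 4.27, 4.32 and 4.28 against 5.59, 5.21 and 6.0 (-1.31 ± 0.153, adjusted p = 0.00407), and 4.11 to 4.46 on the other 6 arrays. Neither pair of groups overlaps. A feature of the FRI(Sf-2)-flc-3 plants other than the FLC deletion cannot be told apart from the deletion here, because the labels name no separate lines of that genotype. The same limit holds for the probe sets in which FRI(Sf-2)-FLC(Col) stood apart.

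AT4G16190 has 2 probe sets on the array. The called one, 13230_at, measured 9.42, 8.57 and 8.10 with FLC and 9.03, 7.75 and 7.48 without (0.61 ± 0.102, adjusted p = 0.0447, and 0.163 without the FRI(Sf-2)-flc-3 day 2 array). The other, 15972_at, measured 9.00, 8.07 and 7.66 against 8.62, 7.5 and 7.12 (0.49 ± 0.0995, adjusted p = 0.0747). Both were lower after day 0 in both genotypes and were higher with FLC on each day, by 0.39 to 0.82 and by 0.37 to 0.57, so the groups overlap over the days but not within them. With the Col-0 FRI allele the difference had the opposite sign on both, at -0.08 and -0.24. The listed papain-like cysteine proteases with a named probe set come down to CP1, which was dim (3.40 to 4.00) and measured -0.06 ± 0.136 (adjusted p = 0.878).

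The calls differ in how firmly they rest on single arrays. Of 22 alternative settings, all 22 called 17501_s_at and 16586_s_at, and 20 of the 21 that tested 16341_at called it, while the others passed in 8 (AT4G16190), 11 (17774_s_at), 12 (17029_s_at and 17549_at), 13 (17953_at) and 15 (16422_at) of 21 or 22. Without the FRI(Sf-2)-flc-3 day 2 array 4 probe sets were called, and of the 9 these included 17501_s_at, 16586_s_at and 16341_at. Leaving out other arrays gave 2 (FRI(Sf-2)-flc-3 day 0), 3 (FRI(Sf-2)-flc-3 day 4), 4 (FRI(Sf-2)-FLC(Col) day 2 or fri(Col)-FLC(Col) day 4), 19 (fri(Col)-FLC(Col) day 2), 24 (fri(Col)-flc-3 day 4) or 27 (FRI(Sf-2)-FLC(Col) day 0). In none of these settings did any of the 9 change sign.

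Among probe sets with 1 gene and the same sign on all days, 270 of 2736 (9.87%) had an unadjusted p under 0.05, 167 higher (6.1%) and 103 lower (3.76%) with FLC. The 10 largest differences in either direction are described next; none of these 20 passed the adjusted threshold, so the values are given without a call. AT1G76960 measured 7.46, 6.99 and 7.40 with FLC and 6.81, 5.88 and 5.44 without (1.24 ± 0.241, adjusted p = 0.0747). It stayed near its starting level with FLC while without it the level had dropped by 1.37 on day 4. CHI, annotated as a putative chitinase, measured 7.78, 7.72 and 7.49 against 6.83, 6.83 and 6.51 (0.93 ± 0.217, adjusted p = 0.129), a near constant difference.

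The jacalin-related lectin gene JAL34 measured 5.86, 5.66 and 5.18 with FLC and 5.11, 4.56 and 4.24 without (0.93 ± 0.190, adjusted p = 0.0747). JAL23, of the same family, measured 8.38, 8.93 and 9.43 against 7.46, 8.55 and 8.43 (0.77 ± 0.307, adjusted p = 0.352), and AT1G52100, another jacalin-type lectin gene, 6.89, 7.05 and 6.52 against 6.6, 6.22 and 5.73 (0.64 ± 0.118, adjusted p = 0.0641). The direction these 3 share was fixed by how they were picked. JAL23 read higher after day 0 in both genotypes and JAL34 lower in both. AT1G54010, the GDSL-like lipase gene GLL23, measured 11.32, 11.48 and 11.57 against 10.70, 10.61 and 10.45 (0.87 ± 0.179, adjusted p = 0.0747). Its level was slightly higher on each later day with FLC and slightly lower without, and the groups did not overlap.

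THI2.2, which encodes a thionin, a small antimicrobial peptide, measured 7.15, 6.94 and 5.42 with FLC and 6.30, 5.47 and 5.17 without (0.86 ± 0.232, adjusted p = 0.178). Its difference was largest on day 2 and smallest on day 4. AT2G29340, AT4G02850 and AT5G25970 differed by 0.69, 0.65 and 0.63. AT5G25970 measured 7.69, 7.62 and 8.09 against 7.31, 7.05 and 7.14, so its difference was widest on day 4.

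**Figure D2:**
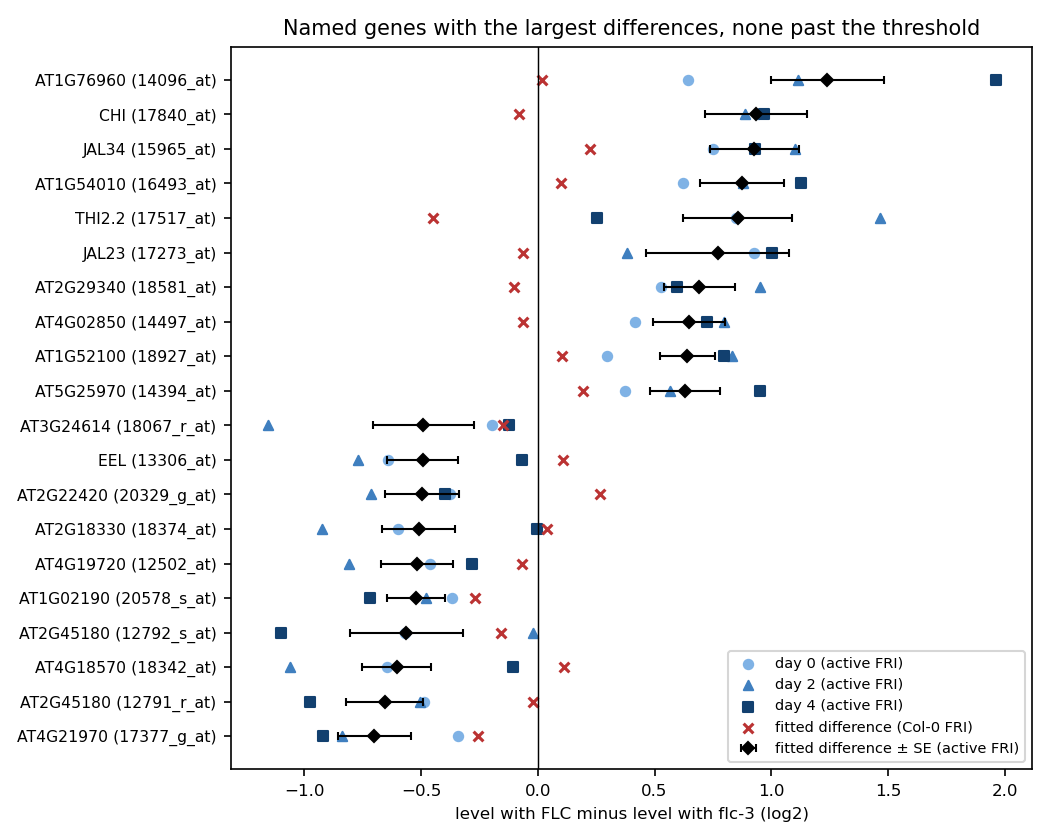
Difference in level (log2) between plants with FLC and plants with flc-3 for the 10 largest positive and 10 largest negative differences among named probe sets; black diamonds give the fitted difference and its SE with the Sf-2 FRI allele, blue symbols the single days, and red crosses the fitted difference with the Col-0 FRI allele. AT1G76960 lies at 1.24 and AT4G21970 at -0.70, and the red crosses run from -0.45 to 0.27. These genes were picked by their difference with the Sf-2 FRI allele, so smaller differences with the Col-0 allele follow in part from the picking.

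On the lower side AT4G21970 measured 4.43, 4.25 and 4.41 with FLC and 4.78, 5.09 and 5.33 without (-0.70 ± 0.156, adjusted p = 0.110). It was flat with FLC and higher on each later day without it, and the groups did not overlap. AT2G45180, a gene of the lipid-transfer and seed-storage protein superfamily, is represented by 2 probe sets: 12791_r_at measured 9.96, 9.24 and 9.06 against 10.45, 9.74 and 10.03 (-0.66 ± 0.164, adjusted p = 0.147), and 12792_s_at 9.59, 8.98 and 8.79 against 10.16, 9.00 and 9.89 (-0.56 ± 0.242, adjusted p = 0.379). On both, the day 4 difference was the widest, at -0.98 and -1.10. Without the FRI(Sf-2)-flc-3 day 2 array, the fitted difference of 12792_s_at was -0.88, over 1.5 times as large.

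AT4G18570 measured 6.68, 6.49 and 7.35 with FLC and 7.32, 7.55 and 7.46 without (-0.60 ± 0.148, adjusted p = 0.141), with little left of the difference on day 4. AT1G02190, a relative of the wax synthesis gene CER1, measured 4.82, 5.02 and 5.20 against 5.18, 5.50 and 5.92 (-0.52 ± 0.123, adjusted p = 0.133) and was higher on later days in both. EEL, a bZIP transcription factor gene, measured 4.48, 5.18 and 5.73 against 5.12, 5.95 and 5.79 (-0.49 ± 0.151, adjusted p = 0.228), so that the genotypes met on day 4. AT4G19720, AT2G18330 and AT2G22420, the last a peroxidase gene, differed by -0.52, -0.51 and -0.49. AT4G19720 was dim, with a mean of 3.87 in FRI(Sf-2)-flc-3 and of 3.35 to 3.56 in the other genotypes. It thus passed the filter level of 3.56 mainly through the genotype where it is high, and its size is uncertain. Without the FRI(Sf-2)-flc-3 day 2 array its difference was -0.35. AT3G24614 is a small nucleolar RNA gene whose difference of -0.49 became -0.12 without the FRI(Sf-2)-flc-3 day 2 array, where it read 5.05 against 3.88 to 4.75 on all others.

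Of 118 genes with several tested probe sets, 3 had at least 2 of them at an unadjusted p under 0.05 in limma, and in each the probe sets had the same direction. Of all tested probe sets, 11.8% had such a p. Probe sets of 1 gene can read the same transcript on the same arrays, so a shared direction is not independent support. The 3 genes are AT4G16190 and AT2G45180, described above, and YLS5, a gene named for its transcript in yellowing leaves. The 2 probe sets of YLS5 measured 7.92, 7.71 and 7.77 with FLC and 7.52, 7.10 and 7.14 without (0.54 ± 0.134, adjusted p = 0.147), and 10.17, 9.99 and 10.06 against 9.70, 10.11 and 9.39 (0.34 ± 0.131, adjusted p = 0.333). The first was higher with FLC on all days, the second on days 0 and 4. Without the FRI(Sf-2)-flc-3 day 2 array their differences were 0.41 and 0.47.

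The gene lists chosen for this tissue and genotype hold 508 symbols, of which 32 genes (43 probe sets) were tested. In limma, 0 of the 43 passed the adjusted threshold; at an unadjusted p under 0.05 there were 5 higher and 3 lower, against 11.8% of all tested probe sets. The median over the 43 was 0.02 (log2), and 0.01 over all 6185.

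The list of flowering time regulators has 82 symbols, and 3 of its genes had a named probe set. AGL19 was too dim to be tested. FT, SOC1 and FD are not among the tested genes of any list, so the list values do not describe them. GI and LD were tested with 4 probe sets, 1 of which reached an unadjusted p under 0.05. GI, which links the circadian clock to photoperiodic flowering upstream of CO and FT, measured 8.88, 7.84 and 7.38 with FLC and 8.90, 7.43 and 7.02 without on that probe set (0.25 ± 0.112, adjusted p = 0.407). It was lower after day 0 in both genotypes, equal on day 0 within 0.02 and higher with FLC on days 2 and 4. The other 2 tested probe sets of GI differed by 0.03 and 0.13 (-0.03 and 0.01 without the FRI(Sf-2)-flc-3 day 2 array), so the gene's own probe sets do not give 1 size. LD, a gene of the autonomous pathway that represses FLC, measured 0.01 ± 0.132. CCL, a rhythmically expressed transcript, measured 9.26, 7.53 and 7.24 against 9.31, 7.48 and 7.21 (0.01 ± 0.113, adjusted p = 0.985). With the Col-0 FRI allele it differed by -0.91 ± 0.113 (limma adjusted p = 0.0222), the only probe set to pass there. The differences of CCL in the FRI backgrounds were not shown to differ from each other (interaction 0.92 ± 0.159, adjusted p = 0.143).

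Among floral and meristem genes, 1 of 2 and 1 of 3 tested probe sets had an unadjusted p under 0.05, both lower with FLC. SPT, a bHLH gene of carpel development, measured 5.17, 5.21 and 5.25 with FLC and 5.55, 5.61 and 5.44 without (-0.32 ± 0.126, adjusted p = 0.335); without the FRI(Sf-2)-flc-3 day 2 array the difference was -0.20. YAB3 measured 8.82, 8.88 and 9.08 against 9.08, 9.13 and 9.27 (-0.24 ± 0.0861, adjusted p = 0.318), while its other tested probe set differed by -0.09 (-0.22 without that array). The list medians were -0.12 and -0.09. The 4 tested cell cycle probe sets, PRL (a replication licensing factor of the MCM family), the histone gene HIS4 and the Aurora kinase genes AUR2 and AUR3, ran from -0.31 to 0.09 with 0 at an unadjusted p under 0.05 in limma. PRL, at -0.31, read -0.12 without the FRI(Sf-2)-flc-3 day 2 array. SLY1, an F-box gene of gibberellin signalling, measured 0.02 ± 0.0872.

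Of the cold and dehydration genes, 0 of 6 tested probe sets passed in limma and 1 had an unadjusted p under 0.05. The 6 probe sets, of 4 genes, had negative differences, that of COR15B close to 0, with a median of -0.37; over all tested probe sets 46.8% were negative. COR47, a dehydrin gene, measured 8.00, 7.37 and 6.92 with FLC and 8.54, 7.68 and 7.34 without on that probe set (-0.42 ± 0.131, adjusted p = 0.232), and its other probe set differed by -0.07 ± 0.148. LTI30, another dehydrin gene, differed by -0.35 ± 0.170, COR15B by -0.00 ± 0.418, and the cold-inducible gene KIN2 by -0.39 ± 0.203 and -0.42 ± 0.203. The mean level of the 6 ran from 6.94 to 7.59 over the days with FLC and from 6.89 to 7.95 without, so the groups overlap. Without the FRI(Sf-2)-flc-3 day 2 array the differences were -0.46 and -0.24 for COR47, -0.18 and -0.16 for KIN2, -0.21 for LTI30 and 0.31 for COR15B, so the list no longer had 1 sign.

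Of the defence genes, 0 of 8 tested probe sets passed in limma and 2 had an unadjusted p under 0.05. The 8 probe sets, of 6 genes and 3 of them of THI2.1, had positive differences with a median of 0.16; over all tested probe sets 53.2% were positive. Those at an unadjusted p under 0.05 are THI2.2, described above, and OSM34, an osmotin-like gene, which measured 6.14, 5.54 and 3.98 with FLC and 4.84, 5.19 and 4.04 without (0.53 ± 0.239, adjusted p = 0.409). The difference of OSM34 was 1.3 on day 0 and -0.06 on day 4. The 3 probe sets of THI2.1 differed by 0.04 to 0.23 and the plant defensin genes LCR68, LCR69 and PDF2.1 by 0.08 to 0.21; without the FRI(Sf-2)-flc-3 day 2 array, 1 probe set of THI2.1 and LCR68 each read -0.02. Photosynthesis genes were split, with 7 of 13 higher and 6 lower and a median of 0.02. PSBY and PSAE-1, subunit genes of photosystems II and I, had an unadjusted p under 0.05 on 1 probe set each (0.29 ± 0.102 and 0.25 ± 0.0818, adjusted p = 0.306 and 0.254). PSBY read 0.19 without the FRI(Sf-2)-flc-3 day 2 array. The other 2 probe sets of PSAE-1 differed by -0.05 and 0.03 (0.15 and 0.13 without that array).

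**Figure D3:**
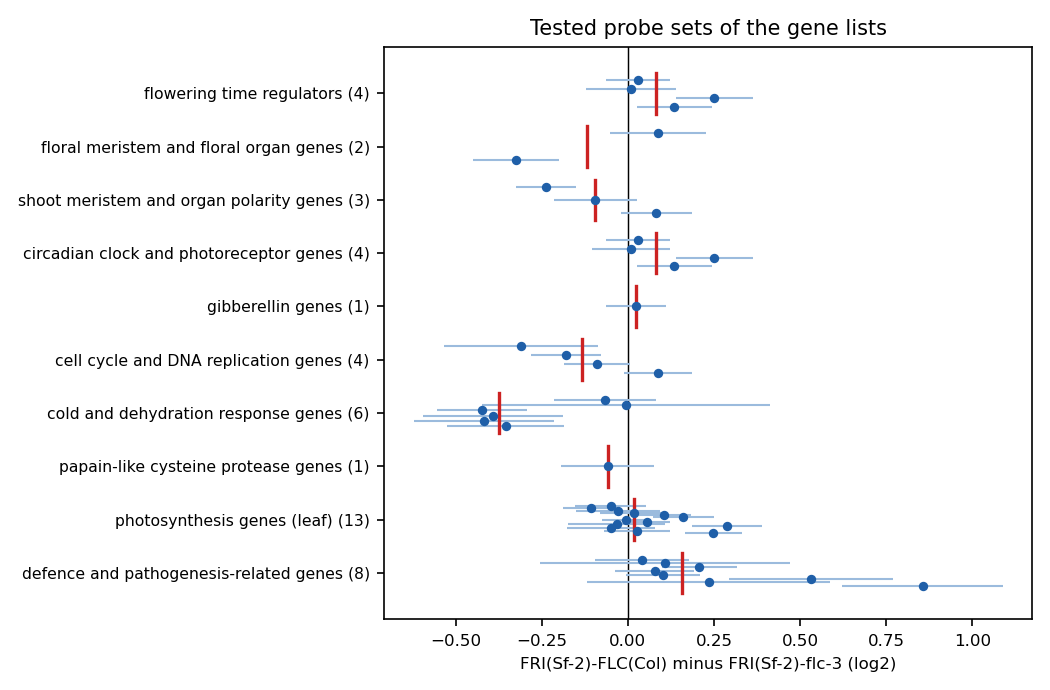
Fitted difference in level between FRI(Sf-2)-FLC(Col) and FRI(Sf-2)-flc-3 (log2, points, with SE bars) for each tested probe set of the gene lists, with the number of probe sets in brackets and the list median as a red line; GI counts in 2 lists. The cold and dehydration list has its median at -0.37 and the defence list at 0.16, and no point passed the adjusted threshold.

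To see where the difference belonged to active FRI, it was set against the same difference with the Col-0 FRI allele. The sizes of the 2 differences rest on separate arrays, but their SE and p-values come from 1 fit with a shared spread. Fewer probe sets reached the thresholds with the Col-0 FRI allele. In limma 1 of 6185 passed (0.0162%), that of CCL. At an unadjusted p under 0.05 there were 153 (2.47%), 57 higher (0.922%) and 96 lower (1.55%). By size the pairs were closer: 102 probe sets differed by at least 1 log2 unit on any day with the Sf-2 allele and 90 with the Col-0 allele. The array that stood apart, FRI(Sf-2)-flc-3 day 2, belongs only to the Sf-2 pair, though it also enters the shared spread. In the test of 1 difference against the other, 449 had an unadjusted p under 0.05 (7.26%), 312 of them higher with the Sf-2 allele (5.04%). That test passed for 2 probe sets (0.0323%), 17501_s_at at 2.23 ± 0.266 (adjusted p = 0.0148) and 16586_s_at at 0.98 ± 0.131 (adjusted p = 0.0228). The other 7 called probe sets were not shown to differ between FRI backgrounds, with adjusted p from 0.143 for 16341_at to 0.685 for 16422_at. Of the 20 named differences above, none passed this test. Among them THI2.2 had the largest, 1.3 ± 0.329 (adjusted p = 0.355), with a difference of -0.45 in the Col-0 FRI background.

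Both calls of the background test ended (0 called) without any 1 of FRI(Sf-2)-FLC(Col) day 2, FRI(Sf-2)-flc-3 day 0 or day 4 and fri(Col)-flc-3 day 0 or day 4, when limma gave 295 to 543 probe sets at an unadjusted p under 0.05. The count was 1 without fri(Col)-FLC(Col) day 0 or fri(Col)-flc-3 day 2. It was 4 without fri(Col)-FLC(Col) day 2 or day 4, and 9 without FRI(Sf-2)-FLC(Col) day 0.

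**Figure D4:**
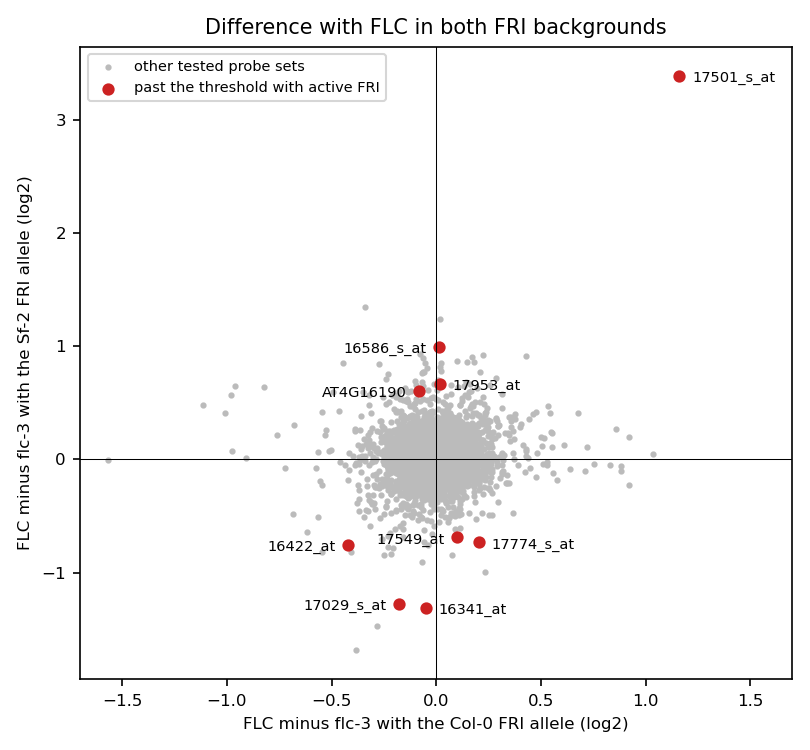
Fitted difference with FLC (log2) with the Sf-2 FRI allele on the vertical axis and with the Col-0 FRI allele on the horizontal axis; each point is a tested probe set and red points are the 9 past the threshold with the Sf-2 allele. 17501_s_at lies at 3.39 and 1.16, while 16586_s_at and 16341_at lie near 0 on the horizontal axis.

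The differences were also counted on each day, where each rests on 1 array per genotype. On day 0, 14 tested probe sets differed by at least 1 log2 unit between FRI(Sf-2)-FLC(Col) and FRI(Sf-2)-flc-3, on day 2 there were 67 and on day 4 there were 40. The day 2 count uses the array that stood apart. On that day the median difference was -0.08 in the dimmest 25% of probe sets and 0.09 in the brightest 25%. These medians were -0.02 and 0.03 on day 0, and -0.01 and 0.00 on day 4. How much of the day 2 count comes from that array was not tested. Only 17501_s_at differed by at least 1 on all 3 days. Between the genotypes with the Col-0 FRI allele the counts were 39, 41 and 24.

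The change from day 0 to day 4 was tested between the 2 genotypes in a model with day terms of their own. It passed for 1 of 6185 probe sets (0.0162%), 12876_at, and 158 (2.55%) had an unadjusted p under 0.05. 12876_at measured 3.04, 3.12 and 3.10 in FRI(Sf-2)-FLC(Col) and 3.27, 4.83 and 6.23 in FRI(Sf-2)-flc-3. It started at the same low level in both, stayed there with FLC and rose by 2.97 without it. The difference of the day 4 responses was -2.91 ± 0.218 (adjusted p = 0.0232). Its mean in FRI(Sf-2)-FLC(Col), 3.09, is below the level of 3.56 that the filter asks of the mean over all arrays, so it entered the test through the other genotypes, at 4.46 to 4.84. The size is therefore measured against values at the dim end of the scale and is uncertain. With no filter it was also called (adjusted p = 0.0175). With the Col-0 FRI allele it rose whether FLC was present or not, from 3.07 to 6.25 and from 3.48 to 6.66. The call ended (0 called, with 141 to 247 at an unadjusted p under 0.05 in limma) without any 1 of fri(Col)-FLC(Col) day 4, fri(Col)-flc-3 day 0 and fri(Col)-flc-3 day 4.

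Other probe sets followed a like course without passing. They were chosen after their values were seen, as those with a difference of at least 1 on day 4 and under 0.5 on day 0, a set of 24, 13 higher and 11 lower with FLC. By the same measure there were 21 between the genotypes with the Col-0 FRI allele, 18 higher and 3 lower. 14123_at measured 2.70, 2.71 and 3.19 with FLC and 3.01, 4.63 and 5.38 without, and with a mean of 2.87 in FRI(Sf-2)-FLC(Col) it too was tested only through the other genotypes. 18035_at measured 3.41, 3.68 and 3.78 against 3.63, 4.05 and 5.64, and 17538_at 5.54, 6.10 and 6.71 against 5.85, 7.20 and 8.02. In each, day 4 was further above day 0 without FLC than with it, and the plants with the Col-0 FRI allele read 5.08 or more on day 4 in these 3 probe sets. 20443_s_at ran the other way, at 9.43 on day 0 and 6.85 on day 4 with FLC and at 9.42 and 5.79 without. The reverse course, a difference of at least 1 on day 0 and under 0.5 on day 4, was met by 9 probe sets, 6 higher and 3 lower with FLC. With the Col-0 FRI allele it was met by 34, 26 higher and 8 lower.

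Named genes with a shifting difference were few. DFR, an enzyme gene of anthocyanin synthesis, was 1 of 3 named among the 24 and measured 5.52, 6.24 and 6.20 with FLC and 5.07, 5.87 and 5.20 without, the widest difference falling on day 4. UGT84A1, a glucosyltransferase gene of phenylpropanoid metabolism, stayed at 3.89, 4.04 and 3.98 with FLC and measured 3.70, 4.13 and 4.91 without (-1.11 ± 0.218, adjusted p = 0.999). KIN2 crossed over: it measured 10.50, 10.41 and 10.62 with FLC and 11.28, 11.25 and 10.17 without on 1 probe set, and 10.28, 10.18 and 10.27 against 11.0, 11.11 and 9.87 on the other. It was lower with FLC on days 0 and 2 and higher on day 4 on both (1.23 ± 0.183 and 1.12 ± 0.191, adjusted p = 0.467 and 0.861). UGT84A1 and KIN2 were among the 7 lowest p-values of this test and were singled out after their values were seen.

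**Figure D5:**
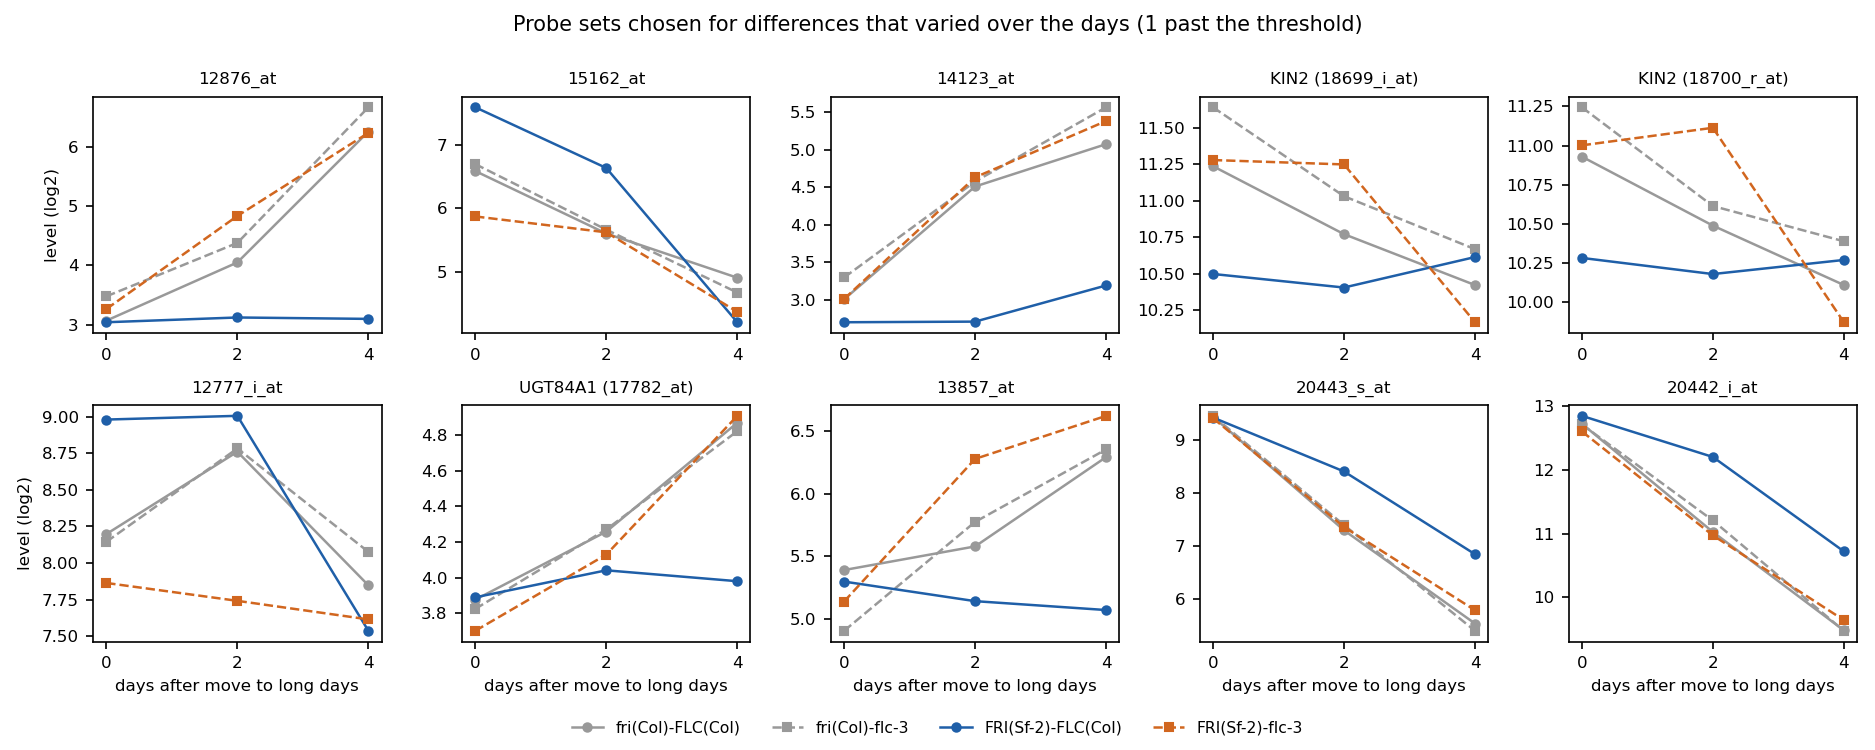
Level (log2) against days after the move to long days for 10 probe sets chosen after their values were seen: those with the lowest p for the day 4 response, then others with a difference of at least 1 on day 4 and under 0.5 on day 0; points, lines and colours as in the plot of the called probe sets. 12876_at, the 1 past the threshold, stays between 3.04 and 3.12 in FRI(Sf-2)-FLC(Col) and reaches 6.23 in FRI(Sf-2)-flc-3.

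By chromosome, the share of named probe sets at an unadjusted p under 0.05 was 10.9% on chromosome 1, 9.96% on 2, 12.1% on 3, 11% on 4 and 5.93% on 5, the chromosome that carries FLC. Chromosomes 3 and 5 were covered by 149 and 118 tested probe sets, against 595, 1014 and 853 on the others.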

How the data were processed

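The authors deposited 1 value per probe set and array. That these deposited values are on a log2 scale was inferred from their range. How they were normalized, and with which software, is not given in the sources used here; they entered the tests unchanged. Precision is set by the small number of arrays.

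The array has 8297 probe sets, and 50 controls among them were dropped. Genes were named from the platform annotation where a probe set has 1 gene (3794 probe sets, 70 with several, 4383 with none), with symbols from RefSeq's TAIR10.1 table (3784 matched). No genome coordinates or sequences are given. Suffixes such as _s_at mark probe sets that can match several transcripts, so their values may mix genes.

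Probe sets with a mean above the 25th percentile (3.56) entered limma (version 3.58.1, R version 4.3.3; a linear model with moderated variances and a mean-variance trend). P-values were two-sided and adjusted by the Benjamini-Hochberg method over all 6185, with 0.05 as the threshold. The additive model left 6 residual degrees of freedom (prior 5.93); that for the day 4 response, with day terms of their own for both Sf-2 genotypes, left 2 (prior 4.84). Scripts were tested on simulated data.

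Named are all called probe sets, other probe sets of a called gene, the 10 largest differences each way among named probe sets with 1 sign and an unadjusted p under 0.05, list members at that p, and calls of the other 2 tests. The comparison, rule and 11 lists were chosen with earlier results of these data known. Alternatives were other normalizations, filters, variance trends, array weights, the 6 arrays alone, other day terms and each array left out.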

Additional observations from a re-analysis of the deposited data

Results flagged for a closer look

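The difference with FLC was not the same in both FRI backgrounds for 17501_s_at and 16586_s_at. For 17501_s_at it was larger with the Sf-2 FRI allele by 2.23 ± 0.266 (log2, limma adjusted p = 0.0148), and it was positive on all 3 days in both backgrounds. For 16586_s_at it was larger by 0.98 ± 0.131 (adjusted p = 0.0228), with 0.99 in the Sf-2 background and 0.01 in the Col-0 background.

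The day 4 response of 12876_at differed between FRI(Sf-2)-FLC(Col) and FRI(Sf-2)-flc-3 by -2.91 ± 0.218 (adjusted p = 0.0232). Each response rests on 1 array per day, and the values with FLC are at the dim end of the scale, with a mean of 3.09 below the 3.56 of the filter, so the size is uncertain.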

How the results depend on the processing

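The 9 calls of the FLC difference with active FRI became 31 with array weights, 30 with only the 6 arrays of these genotypes, 15 when the filter stood at the 50th percentile and 14 when the trend was robust. They became 3 with no replicate block, that is with the day that pairs the arrays left out, and 3 with day as a number; the range was 2 to 27 with 1 array left out. Of the 9, 7 were shared with the 15, 8 with the 14, all 9 with the 31 and 7 with the 30. The 2 calls of the background difference became 0 with no replicate block (149 at an unadjusted p under 0.05) and ranged from 0 to 9 with 1 array left out. The 1 call of the day 4 response became 0 with the filter at the 50th percentile, which drops 12876_at (107 at an unadjusted p under 0.05), and ranged from 0 to 1 with 1 array left out. Where nothing else is said, the cause was not tested. The day 4 response was not run on the 6 arrays alone, without day terms, with day as a number, or without a day 0 or day 4 array of either Sf-2 genotype, where it could not be fitted. Over 40 named differences, 762 of 861 alternative values kept their direction and side of the threshold, 78 lost a call, 21 gained one and 0 changed sign. Median centring moved the difference by 0.01. Signal near background limits the dim probe sets: 12876_at and 14123_at read about 3 where they are low.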

Other observations

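Small nucleolar RNAs, which guide the modification of ribosomal RNA, had their highest level on the FRI(Sf-2)-flc-3 day 2 array in 10 of 11 tested probe sets that RefSeq places in that class. Over all tested probe sets, 14.7% were highest on that array. AT5G44286 read 11.89 there and at most 10.60 on the other 11 arrays, AT1G03746 read 8.93 and at most 7.90, and AT3G24615 read 8.62 and at most 8.26. The ribosomal RNA gene AT3G41768 read 5.55 and at most 4.98. None of these passed in the FLC difference, but their day 2 differences between FRI(Sf-2)-FLC(Col) and FRI(Sf-2)-flc-3 reached -1.61 (AT5G44286), -1.47 (AT1G03746) and -1.49 (AT3G24615). The pattern was noticed after the values were seen, and that array also had the high BioB control and the narrow spread; the part of the array in it was not tested.

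AT4G27280, an EF-hand calcium-binding protein gene, measured 8.57, 6.98 and 7.34 on days 0, 2 and 4 in FRI(Sf-2)-FLC(Col) and 8.12, 8.48 and 7.77 in FRI(Sf-2)-flc-3. It was lower with FLC by 1.5 on day 2 and higher by 0.45 on day 0, so that no single direction describes it (fitted difference -0.49, limma adjusted p = 0.668; -0.23 without the FRI(Sf-2)-flc-3 day 2 array).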
